A study of Mus musculus with 6 samples.

Results

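The 10 genes described here were grouped as mast cell and basophil genes, and were measured by RNA-seq in mouse leukemia cells. They were taken by symbol from the table of gene counts as Cpa3, Ms4a2, Fcer1a, Fcer1g, Mcpt8, Prss34, Hdc, Il1rl1, Ms4a3 and Srgn. All 10 were found among the 54532 genes of the table, and 8 of them were counted highly enough to be among the 13352 genes tested. Fcer1g and Mcpt8 were not. The cells carried AML1-ETO9a (AE9a), a short splice form of the fusion protein of t(8;21) acute myeloid leukemia, which had been introduced by retrovirus into c-Kit+ progenitors of C57BL/6 mice. The leukemia was then passed to the third generation of transplanted C57BL/6 mice. Cells flushed from femurs and tibias were central bone marrow (CBM, 3 libraries), and cells released afterwards from the same kind of bone by collagenase were endosteal bone marrow (EBM, 3 libraries). The CBM cells did not go through that digestion, so region and digestion cannot be told apart. Neither the age of the mice at harvest, nor the number of mice behind a library, nor whether libraries of 1 number came from 1 mouse is given, so the p-values measure the spread between these libraries, which may be partly technical.

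Mast cells and basophils are granulocytes of allergy and parasite defence. Both arise from Gata2-dependent progenitors and carry FcεRI, the high-affinity receptor for IgE, which is built from an α chain that binds IgE (Fcer1a), a β chain that amplifies the signal (Ms4a2) and a γ chain that signals and carries the α chain to the surface (Fcer1g). Their granules store histamine, made by histidine decarboxylase (Hdc), and proteases such as carboxypeptidase A3 (Cpa3) on the proteoglycan serglycin (Srgn). Il1rl1 encodes ST2, the receptor for IL-33. Mcpt8 and Prss34 are proteases of mouse basophils, and Ms4a3 marks granulocyte-monocyte progenitors.

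Counts on genes totalled between 16436526 and 19462964 per library, and a floor of 3 counts corresponded to between 0.149 and 0.193 CPM (counts scaled here to library size and TMM factor). Such floors cover counting error only. The libraries stood apart most along an axis that was not the region. The first principal component of log2 CPM held 53.0% of the variance, with scores of 38.5, -42.9 and -5.81 for the CBM libraries and 36.4, 19.8 and -46.0 for the EBM libraries. The second component held 19.7% and separated the regions. Its scores were 22.8, 3.58 and 31.5 for CBM and -22.2, -20.9 and -14.8 for EBM. Here and throughout, values of a region stand in the order of replicates 1, 2 and 3. Kit, the receptor that marks these leukemia cells, was steady at between 196 and 239 CPM.

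Of the 10 genes, 4 were among the abundant transcripts of every library. Per length, in TPM (transcript abundance computed here with the gene lengths of the table), Srgn averaged 1650.4 TPM over the 6 libraries and ranked 69 of all genes. Ms4a2 averaged 984 TPM (rank 138), Il1rl1 465 TPM (rank 277) and Hdc 419 TPM (rank 309), against a median of 21.2 TPM over the genes tested. Cpa3 and Fcer1a followed with means of 225 and 157 TPM, but in these genes the mean hid a wide range among libraries. Prss34, Ms4a3, Fcer1g and Mcpt8 were low, with means of 7.01, 3.41, 2.37 and 1.18 TPM. Together the 10 genes took 0.501%, 0.273% and 0.391% of the counts of the CBM libraries and 0.532%, 0.511% and 0.301% of those of EBM.

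**Figure D1:**
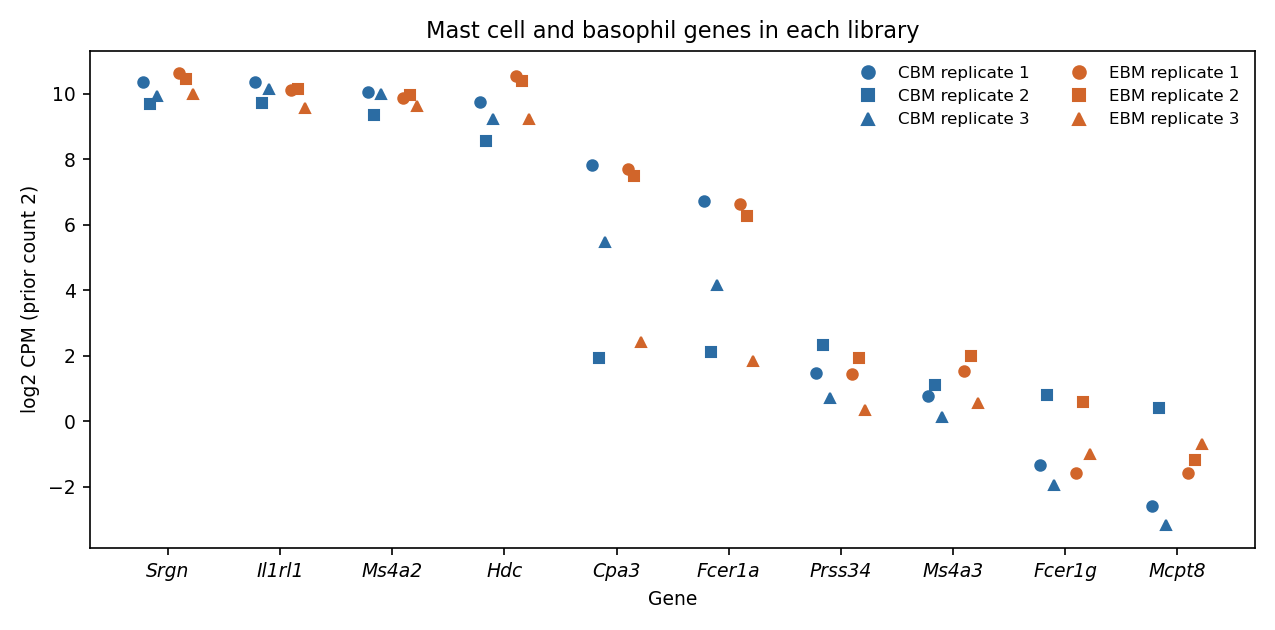
Log2 CPM (prior count 2, vertical axis) of each of the 10 genes (horizontal axis, ordered by abundance) in the 3 CBM libraries (blue) and the 3 EBM libraries (orange), with 1 point for each library and its replicate number as the marker shape. Srgn, Il1rl1, Ms4a2 and Hdc lie between 8.56 and 10.62 in every library, while Cpa3 spans 1.94 to 7.81 and Fcer1a 1.84 to 6.73 with both colours at either end.

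Cpa3 encodes the granule carboxypeptidase of mast cells and early basophils (ENSMUSG00000001865, minus strand of chromosome 3, 20215620 to 20242181, GRCm38). The CBM libraries held 3938, 71 and 892 counts and the EBM libraries 3800, 3229 and 81. In CPM this was 224, 3.74 and 44.3 for CBM against 209.8, 179.8 and 5.20 for EBM. CBM replicate 1 and EBM replicates 1 and 2 were high, CBM replicate 3 was intermediate, and CBM replicate 2 and EBM replicate 3 were low, so each region held both extremes. Within EBM alone the highest library was 40.3 times the lowest. In bulk RNA, fewer cells that express a gene and less RNA per cell cannot be told apart.

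Fcer1a, the IgE-binding chain (ENSMUSG00000005339, minus strand of chromosome 1, 173221284 to 173227214), went the same way. It had 1860, 81 and 355 counts (106, 4.26 and 17.6 CPM) among the CBM libraries. Among the EBM libraries it had 1775, 1375 and 54 counts (98.0, 76.5 and 3.47 CPM). The same 3 libraries were high, the same 1 intermediate and the same 2 low, with 24.8-fold between the extremes within CBM and 28.2-fold within EBM. The ratio of Cpa3 to Fcer1a, per length, was between 1.39 and 1.65 in the 4 libraries with more of both, but 0.577 in CBM replicate 2 and 0.987 in EBM replicate 3.

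For scale, the highest library exceeded the lowest by a median of 1.54-fold over the 13352 genes tested (log2 CPM with a prior count of 2), and by at least 10-fold in 231 genes, or 1.73%. On this measure Cpa3 spanned 58.3-fold and ranked 12, and Fcer1a spanned 29.6-fold and ranked 53. Of the 4791 genes with a mean of at least 50 CPM, 3 had a spread as wide as Cpa3 (itself included) and 7 as wide as Fcer1a. The other 6 tested genes of the group spanned between 1.61-fold (Ms4a2) and 3.99-fold (Prss34). The group thus held both very variable genes and genes near the typical spread, since 45.1% of all genes tested spanned as much as Ms4a2 and 40.0% as much as Il1rl1.

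**Figure D2:**
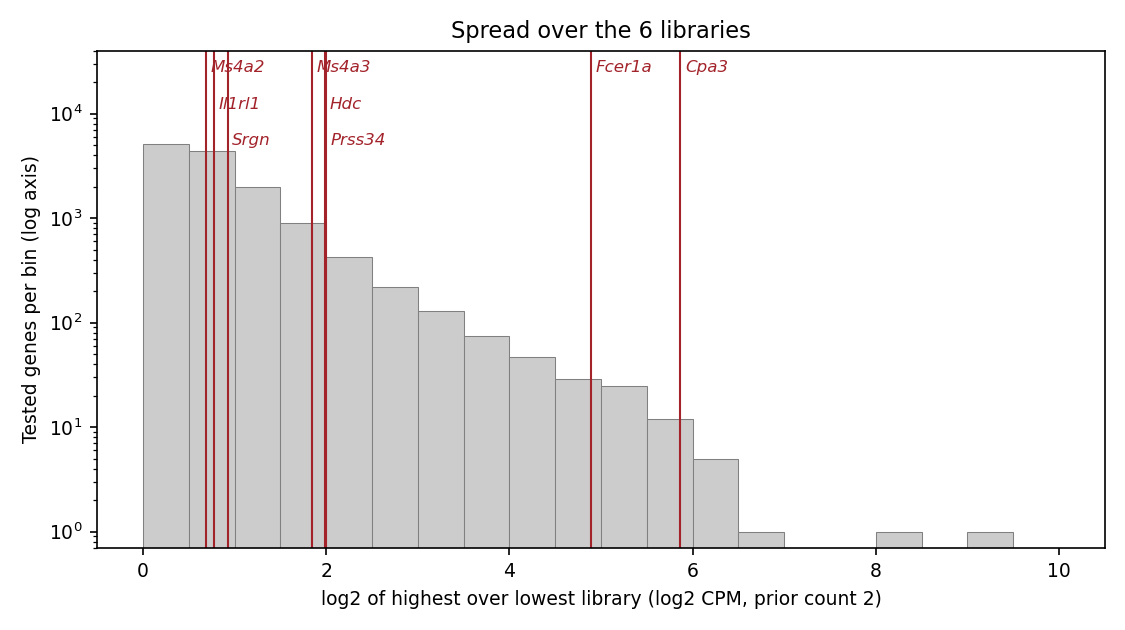
Distribution of the spread over the 6 libraries for the 13352 genes tested. The horizontal axis is the log2 ratio of the highest to the lowest library, the vertical axis (log scale) the number of genes in each bin, and red lines mark the 8 tested mast cell and basophil genes. Cpa3 (58.3-fold) and Fcer1a (29.6-fold) lie in the far tail, and Ms4a2, Il1rl1 and Srgn (1.61- to 1.90-fold) near the bulk.

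Promoter sequence is shown for Cpa3 and Fcer1a, the genes with the wide spread, and for Ms4a2 and Hdc, which were abundant in every library. Each run is the 250 bases before the RefSeq start on GRCm38.p6, 5′ to 3′ on the gene's strand, with capitals marking matches on either strand to AGATAA, read by factors such as Gata2, and to TGTGGT, the motif of the RUNX family to which the DNA-binding part of AE9a belongs. The windows are chr3:20242182-20242431 for Cpa3, chr1:173227230-173227479 for Fcer1a, chr19:11623720-11623969 for Ms4a2 and chr2:126618679-126618928 for Hdc, all of them on the minus strand.
Cpa3: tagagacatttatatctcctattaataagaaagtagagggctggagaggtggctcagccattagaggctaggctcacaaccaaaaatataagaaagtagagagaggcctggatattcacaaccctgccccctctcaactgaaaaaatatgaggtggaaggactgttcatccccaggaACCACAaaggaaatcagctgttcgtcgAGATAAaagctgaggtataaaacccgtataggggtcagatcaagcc
Fcer1a: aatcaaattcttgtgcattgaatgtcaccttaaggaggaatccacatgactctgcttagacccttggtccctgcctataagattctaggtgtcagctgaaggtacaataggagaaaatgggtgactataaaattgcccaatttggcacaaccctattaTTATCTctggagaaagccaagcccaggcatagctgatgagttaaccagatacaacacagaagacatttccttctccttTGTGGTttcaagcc
Ms4a2: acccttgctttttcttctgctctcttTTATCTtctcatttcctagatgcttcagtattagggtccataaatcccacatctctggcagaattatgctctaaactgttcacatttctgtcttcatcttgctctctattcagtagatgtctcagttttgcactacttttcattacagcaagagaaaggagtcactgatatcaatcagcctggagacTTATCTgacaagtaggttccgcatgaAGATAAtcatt
Hdc: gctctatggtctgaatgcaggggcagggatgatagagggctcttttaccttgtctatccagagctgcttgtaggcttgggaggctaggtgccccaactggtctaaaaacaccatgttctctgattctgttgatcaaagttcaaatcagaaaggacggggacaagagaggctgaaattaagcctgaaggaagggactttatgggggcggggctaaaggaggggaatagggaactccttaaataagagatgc
In Cpa3 a GATA match began 46 bases and a reverse-strand RUNX match 73 bases before the start. In Fcer1a a reverse-strand GATA match began 92 bases and a RUNX match 14 bases before it. Ms4a2 held 3 GATA matches, beginning 224, 37 and 11 bases before the start, and no RUNX match, and Hdc held neither. Over all 10 genes, 5 had a GATA match (Cpa3, Fcer1a, Il1rl1, Ms4a2 and Prss34) and 5 a RUNX match (Cpa3, Fcer1a, Il1rl1, Mcpt8 and Srgn), where Il1rl1 and Srgn each had a pair of windows. Among all 32851 windows of this length, 9.99% held AGATAA and 14.0% TGTGGT on either strand. TGACTCA, an AP-1 motif, was in none of the 10 genes' windows and in 4.46% of all. These matches describe the letters only.

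The transcripts of the FcεRI chains were present in unequal amounts. Ms4a2, the β chain (ENSMUSG00000024680, minus strand of chromosome 19, 11615523 to 11623719), was at 1184, 721 and 1163 TPM across CBM and at 982, 1071 and 784 TPM across EBM. Every library was high, CBM replicate 2 and EBM replicate 3 being the lowest. Fcer1a, per length, was at 28.4%, 1.84% and 4.90% of Ms4a2 across CBM and at 29.6%, 21.8% and 1.25% across EBM. The α chain transcript therefore stayed below that of the β chain in all 6 libraries. These are RNA levels and do not give the amounts of protein.

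Fcer1g, the γ chain (ENSMUSG00000058715, minus strand of chromosome 1, 171229572 to 171234365), was nearly absent. It had 5, 31 and 3 counts across CBM and 4, 25 and 6 across EBM, from 0.550 to 5.81 TPM. CBM replicate 2 and EBM replicate 2 were the highest, and CBM replicate 3 was at the floor of 3 counts. Per length, Ms4a2 exceeded Fcer1g by 124-fold in CBM replicate 2, the library with the lowest ratio. The order of libraries also differed from that of Fcer1a, since CBM replicate 2 was the highest for Fcer1g and among the lowest for Fcer1a.

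**Figure D3:**
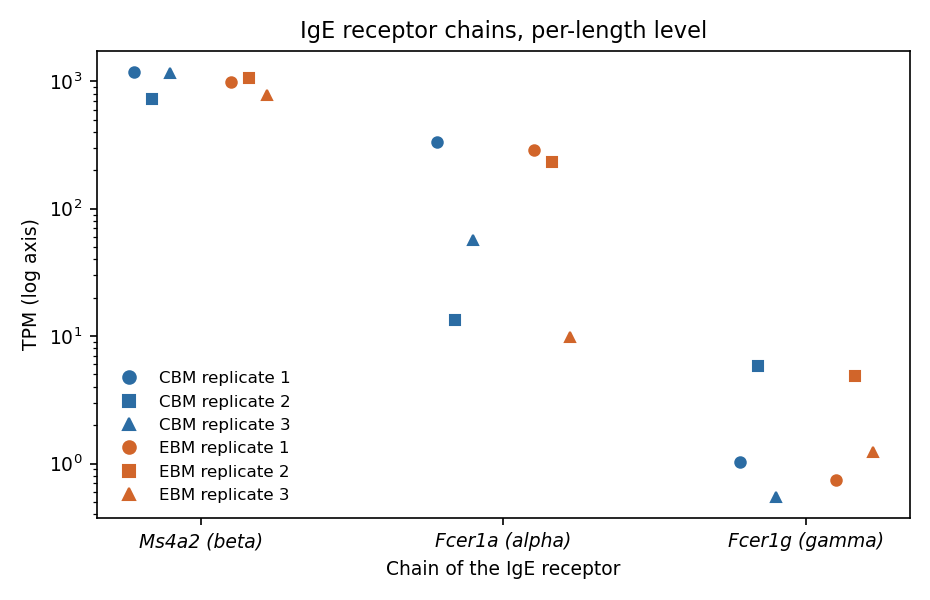
TPM (log axis) of the β chain Ms4a2, the α chain Fcer1a and the γ chain Fcer1g of the IgE receptor in each of the 6 libraries, coloured by region and with the marker showing the replicate number. Ms4a2 stays between 721 and 1184 TPM, Fcer1a spreads from 9.81 to 336 TPM, and Fcer1g stays at or below 5.81 TPM.

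Genes of the same receptor system were described from lists. Of 9 receptors listed as possible partners of the γ chain, 3 were tested. Fcgr3, a low-affinity IgG receptor, was at 118, 12.6 and 44.5 CPM across CBM and at 109, 76.2 and 11.6 CPM across EBM, so its libraries were in 3 levels like those of Fcer1a. Clec4e and Clec4d, C-type lectin receptors, spanned 26.3-fold and 3.81-fold (log2 CPM with a prior count of 2). All 14 genes of proximal FcεRI signalling on the list were tested, and their median spread was 1.55-fold. Among the widest were the adaptors Lat2 (8.44-fold) and Lat (4.19-fold) and the phospholipase Plcg2 (5.71-fold), named with their values in view. The kinase Lyn, which phosphorylates the receptor, spanned 1.35-fold.

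Srgn, Il1rl1 and Hdc showed smaller differences among libraries. Srgn, the proteoglycan core of the granule (ENSMUSG00000020077, minus strand of chromosome 10, 62493833 to 62527451), was at 1317, 828 and 981 CPM across CBM and at 1569, 1408 and 1020.2 CPM across EBM. It is also expressed by many other blood cells. Il1rl1 (ENSMUSG00000026069, plus strand of chromosome 1, 40429570 to 40465415) was at 1301, 838 and 1127 CPM in CBM and 1097, 1139 and 762 CPM in EBM. The counts are per gene, so its membrane-bound and soluble forms were not separated. CBM replicate 2 was the lowest library for Srgn and EBM replicate 3 for Il1rl1, and the regions overlapped in both genes.

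Hdc (ENSMUSG00000027360, minus strand of chromosome 2, 126593667 to 126619299) had 15162, 7148 and 11981 counts across CBM and 27026, 24229 and 9307 across EBM. In CPM this was 863, 376 and 594 for CBM against 1492, 1349 and 598 for EBM. EBM replicates 1 and 2 were above every CBM library, while EBM replicate 3 lay beside CBM replicate 3. Downstream of histamine synthesis, Slc18a2, the transporter that loads amines into granules, was at 121, 10.4 and 42.6 CPM in CBM and 97.7, 68.6 and 6.55 CPM in EBM. It thus differed far more among libraries than Hdc. Hnmt, which degrades histamine, had 1 count in all.

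The basophil proteases were low. Prss34 (ENSMUSG00000056399, plus strand of chromosome 17, 25298394 to 25300161) had 47, 94 and 31 counts across CBM and 47, 67 and 18 across EBM. Mcpt8 (ENSMUSG00000022157, minus strand of chromosome 14, 56082166 to 56085273) had 1, 23 and 0 counts in CBM and 4, 6 and 8 in EBM, and the 0 allowed up to 0.149 CPM. Both were highest in CBM replicate 2, where Cpa3 was lowest. In EBM replicate 3, the other library low in Cpa3, Prss34 was at its own lowest. Other basophil markers differed in level. Cd200r3, an activating receptor, was well counted, at between 148 and 228 CPM. Itga2 and Il3ra were low, at 2.05 CPM and 1.17 CPM at most.

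Ms4a3 (ENSMUSG00000024681, minus strand of chromosome 19, 11629496 to 11640851) lies 5776 bases from Ms4a2 on the same strand. It had 28, 39 and 20 counts across CBM and 51, 69 and 21 across EBM, where replicate 3 lay among the CBM libraries. Per length, its neighbour Ms4a2 was between 172 and 684 times as abundant. Primary granule genes of the same progenitors were low as well, with Mpo (myeloperoxidase) between 1.65 and 35.8 CPM, Elane (neutrophil elastase) between 0.512 and 14.7 CPM and Prtn3 (proteinase 3) between 0.626 and 9.96 CPM. Ms4a3 and these 3 genes were all highest in EBM replicate 2. The list of 4 such genes had a median log2 fold change of 1.53, and 0 of the 4 passed an adjusted p of 0.05 in edgeR or an unadjusted p of 0.05. Of all genes tested, 0% and 7.91% passed these thresholds.

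Between EBM and CBM, none of the 8 tested genes passed the test for a difference. By the quasi-likelihood test of edgeR, Benjamini-Hochberg adjusted over all 13352 genes, 0 of the 8 and 0 of all genes (0%) passed an adjusted p of 0.05. At an unadjusted p of 0.05 it was 0 of the 8 against 7.91% of all genes (4.01% higher and 3.9% lower in EBM, or 535 and 521 genes, which became 340 and 884 when scaled by library totals alone). DESeq2 called 0 of the 8 against 1.39% of all, and edgeR without the filter on low counts called 0 of the 10 against 0.161% of all. At an unadjusted p of 0.05, Hdc alone of these genes passed in DESeq2, where 1003 genes of the whole table passed. Hdc alone also passed that threshold in edgeR without the filter, where 1214 of 24780 genes passed. Libraries of the 2 regions overlapped in all 10 genes, whereas they did not overlap in 15.1% of the genes tested (7.47% with EBM above and 7.65% with EBM below). In log2 fold change, 5 of the 8 genes were above 0 and 3 below, with a median of 0.42, against 50.4% above 0 and a median of 0.00172 over all genes. These adjusted p-values do not show that the levels were the same.

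Hdc had the largest log2 fold change of the 8, at 0.91 ± 0.41 (SE, edgeR adjusted p = 0.659). Its mean was 611 ± 244 CPM for CBM against 1146 ± 480.1 CPM for EBM (SD, n = 3 libraries). In the exact permutation test over the 20 relabellings of the libraries Hdc had a two-sided p of 0.2, where the smallest possible is 0.1. Ms4a3 followed at 0.79 ± 0.45 (SE, edgeR adjusted p = 0.728), with 1.55 ± 0.532 CPM for CBM against 2.67 ± 1.25 CPM for EBM (SD, n = 3 libraries). Leaving out CBM replicate 2 and EBM replicate 3 together, the libraries lowest on the first component, gave log2 fold changes of 0.96 for Hdc (edgeR adjusted p = 0.173) and 1.37 for Ms4a3 (edgeR adjusted p = 0.301). This fit of 2 against 2 libraries was chosen after seeing the data. Leaving out single libraries moved the values either way. Hdc was at 0.65 without CBM replicate 2 and at 1.24 without CBM replicate 1 (edgeR adjusted p = 0.781 and 0.637). Ms4a3 was at 0.43 without EBM replicate 2 and at 1.10 without EBM replicate 3 (edgeR adjusted p = 0.956 and 0.510).

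Cpa3 and Fcer1a had log2 fold changes of 0.54 and 0.48, each with an edgeR adjusted p of 0.983. Their standard errors of 1.46 and 1.31 were larger than the differences themselves, because the libraries within a region were so unlike. The values rested on single libraries, since without CBM replicate 1 they were 2.45 and 2.44 and without CBM replicate 2 they were -0.03 and -0.05. Between libraries of the same number, Cpa3 was lower in EBM by 0.10 for replicate 1, higher by 5.55 for replicate 2 and lower by 3.06 for replicate 3 in log2 CPM.

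Of the 8 genes, Ms4a2, Il1rl1 and Srgn had the smallest standard errors. Ms4a2 had a log2 fold change of -0.01 ± 0.20 (SE), Il1rl1 of -0.12 ± 0.21 and Srgn of 0.35 ± 0.22, with edgeR adjusted p between 0.765 and 0.997. The mean of Ms4a2 was 905 ± 220.3 CPM for CBM against 900.1 ± 106 CPM for EBM (SD, n = 3 libraries). Prss34 was at -0.29 ± 0.55 (SE, edgeR adjusted p = 0.976). For the untested pair, a fit without the filter on low counts gave log2 fold changes of -0.03 for Fcer1g and -0.24 for Mcpt8, with edgeR adjusted p of 0.991 and 0.984.

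**Figure D4:**
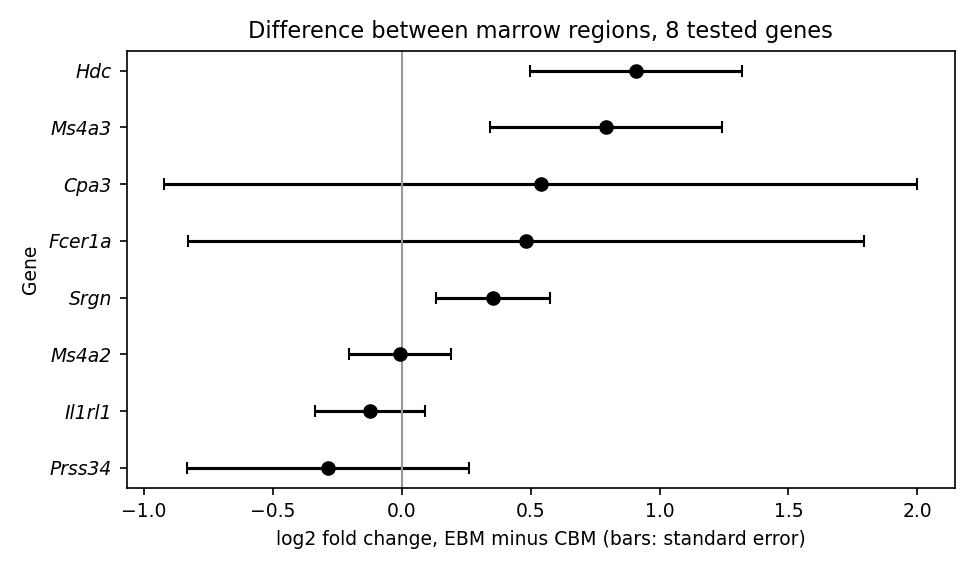
Log2 fold change of EBM over CBM (horizontal axis, bars are the standard error) for the 8 mast cell and basophil genes tested with edgeR, 3 libraries in each region. Hdc lies farthest to the right at 0.91, Cpa3 and Fcer1a have the widest bars (1.46 and 1.31), and no gene passed an adjusted p of 0.05.

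Other genes of mast cells gave a mixed picture. Of 15 listed, 9 were tested and 0 passed the adjusted threshold, with a median log2 fold change of 0.19. Of the 9, 1 had an unadjusted p under 0.05, against 7.91% of all genes tested. This was Tpsab1, a mast cell tryptase, at 0.341, 0.421 and 0.546 CPM in CBM and 3.86, 1.34 and 0.321 CPM in EBM. Its fold change was 2.06 on the log2 scale (edgeR adjusted p = 0.596). The mucosal chymases Mcpt1 and Mcpt2 had log2 fold changes of 0.29 and 0.39 (edgeR adjusted p = 0.915 and 0.922). Genes that define mature connective tissue mast cells were near 0, with Mcpt4 at 7 counts at most, Tpsb2 at 4 counts at most, Mrgprb2 counted in 1 library and Mrgprb1 at 0 in all 6. Against this, the chymase Cma1 was counted in every library, at 44.6, 2.84 and 13.1 CPM in CBM and 45.8, 41.1 and 2.70 CPM in EBM.

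Of 12 other basophil genes, 9 were tested and 0 passed the adjusted threshold, with a median log2 fold change of 0.30. Il4, the cytokine both cell types release, was at 52.5, 35.6 and 42.2 CPM in CBM and 80.0, 74.3 and 55.8 CPM in EBM. The regions did not overlap, EBM being the higher, as in 7.47% of all genes tested. Its log2 fold change was 0.69 ± 0.19 (SE, edgeR adjusted p = 0.414). Il4 was 1 of 9 tested genes of the list with an unadjusted p under 0.05, against 7.91% of all genes. Cd200r3 had -0.23 and Il6 1.69 (edgeR adjusted p = 0.791 and 0.830).

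The 12 genes of histamine, eicosanoid and proteoglycan synthesis had 8 tested and a median log2 fold change of 0.03. Lta4h and Ltc4s, enzymes of leukotriene synthesis, and Alox5ap, which presents the substrate, had log2 fold changes of 0.15, -0.64 and 0.18 (edgeR adjusted p between 0.751 and 0.9). Signalling genes of FcεRI had a median of 0.09, with 12 of 14 above 0, against 50.4% of all genes tested. Of the 14, 8 shared the order of libraries seen in Cpa3, so their signs are not independent results. None had an unadjusted p under 0.05, against 7.91% of all genes. Vav1, Inpp5d and Lcp2 had the smallest p of the 14, with log2 fold changes of 0.14, 0.12 and 0.23.

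In IL-33 signalling 7 of 8 genes were tested, with a median of -0.08, and 1 of the 7, the adaptor Myd88, had an unadjusted p under 0.05, against 7.91% of all genes. The mean of Myd88 was 41.5 ± 1.90 CPM for CBM against 51.7 ± 4.45 CPM for EBM (SD, n = 3 libraries). Its fold change was 0.32 on the log2 scale (edgeR adjusted p = 0.520). The regions did not overlap in 3 of the 7, with EBM above in 1 and below in 2. Over all genes tested this was 15.1%, with EBM above in 7.47% and below in 7.65%. A list of 7 genes is too short to set against these shares. The kinases Map3k7 and Irak4 were at -0.19 and -0.18 (edgeR adjusted p = 0.678 and 0.696). Il33 itself, the ligand, had 0 counts in all 6 libraries, below 0.149 to 0.193 CPM.

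Of 12 lineage transcription factors, 11 were tested, with a median log2 fold change of 0.00113. None had an unadjusted p under 0.05, against 7.91% of all genes tested. Gata2 averaged 521 TPM and Gata1 299 TPM, and Cebpa, which drives granulocyte-monocyte progenitors, had 13 counts at most. Tal1, Gata2 and Spi1 had log2 fold changes of -0.33, 0.29 and 0.20 (edgeR adjusted p = 0.632, 0.725 and 0.837). Gata2 was highest in EBM replicate 3, at 1174 CPM, where Cpa3 and Fcer1a were low. It was lowest in CBM replicate 2, at 700 CPM, where both were low as well. Mitf, a mast cell factor, spanned 2.67-fold (log2 CPM with a prior count of 2) and was lowest in CBM replicate 2 and EBM replicate 3.

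The genes most like Cpa3 by Pearson's r of log2 CPM over the 6 libraries were Tex264, Ldha-ps2, Map4, Gm13023 and Tph1, each with r of 0.998 or 0.999. Such likeness was common, since 1071 of the genes tested (8.02%) had an r of at least 0.9 with Cpa3, and r measures shape and not size. Tex264 spanned 1.37-fold and Map4 2.30-fold. Tph1, which makes serotonin and is a mast cell enzyme, spanned 25.2-fold and was at 438, 19.9 and 122 CPM in CBM and 505, 347 and 21.3 CPM in EBM. For the mean of the 8 tested genes, the 5 most alike were Gm38001, Tiam1, Elmo1, Plaur and Ceacam16, with r of 0.997 or 0.998, and 6.71% of genes had an r of at least 0.9. These values are descriptive, and the 6 libraries share their regions and perhaps their mice.

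Chosen after its values were seen, Cyp11a1, a steroid-synthesis enzyme found in mast cells and basophils, ranked 2 of all genes tested by spread. It had 2068, 17 and 88 counts across CBM and 2101, 1318 and 5 across EBM. The order of libraries in Cpa3 (CBM replicate 1 and EBM replicates 1 and 2 above CBM replicate 3, and that above CBM replicate 2 and EBM replicate 3) was also that of 1266 of the genes tested, or 9.48%, and 88 of these spanned at least 10-fold. Of the 8 tested mast cell and basophil genes described here, Cpa3 and Fcer1a alone had it. It held for 6 of the 9 tested genes of the mast cell list, where Slc18a2 and Cma1 spanned 18.1-fold and 16.3-fold, Rab27b, Mitf and Mcpt2 between 2.50-fold and 2.89-fold, and Kit 1.22-fold. The other 3, Mcpt1, Enpp3 and Tpsab1, had another order. In the basophil list it held for 3 of 9, namely Cyp11a1, Il13 and Itga2, and not for Aqp9, Cd200r3, Cd200r4, Il4, Il6 or Il3ra. The order was not limited to these lists. It held for 3 of 3 tested γ chain partners, 8 of 14 FcεRI signalling genes and 4 of 8 mediator synthesis genes. It also held for 3 of 11 lineage factors and 0 of 7 IL-33 signalling genes. These counts were made after the order had been seen in Cpa3, and Gata2 did not share it.

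**Figure D5:**
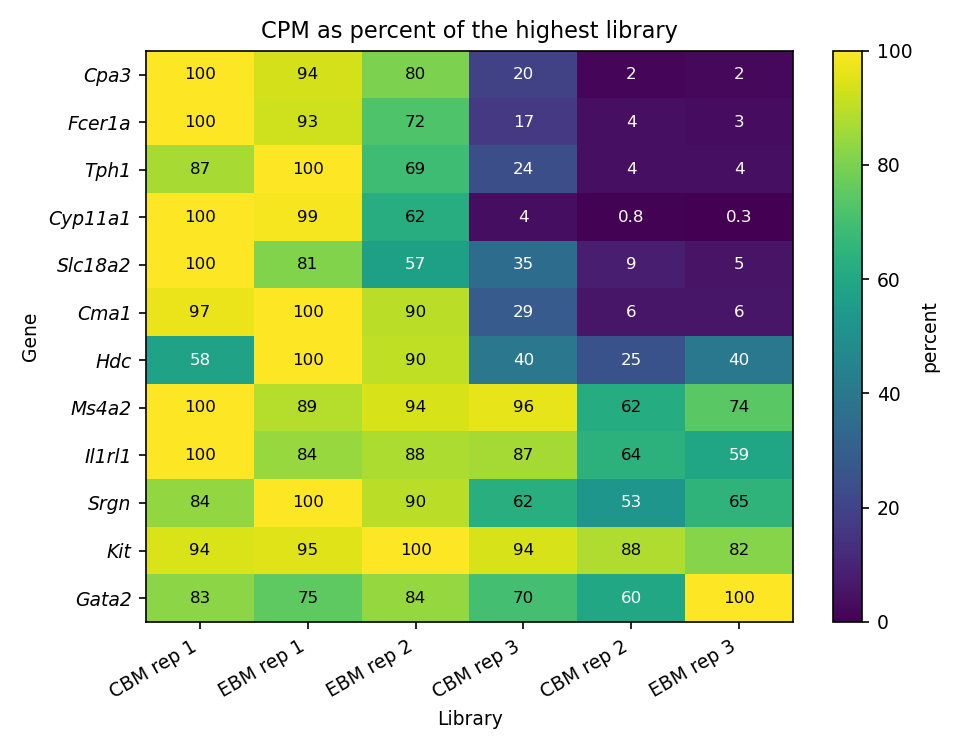
CPM of 12 genes (rows) in the 6 libraries (columns), each as a percent of that gene's highest library, with the number printed in the cell and shown by colour. Cpa3, Fcer1a, Tph1, Cyp11a1, Slc18a2 and Cma1 are at or below 8.59% in CBM replicate 2 and EBM replicate 3, while Ms4a2 is at 62.0% and 74.4% and Kit at 88.1% and 82.0% there.

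Markers of other cell types also differed among libraries. The summed level of 8 erythroid markers was 2263 to 5853 CPM in CBM and 2651 to 4181 CPM in EBM, highest in CBM replicate 2 and EBM replicate 3, the libraries low in Cpa3. Hba-a1 was highest in those libraries, while Hbb-bs was highest in CBM replicate 2 and lowest in EBM replicate 3. Their part in the Cpa3 and Fcer1a values was not tested. The 9 late neutrophil markers summed to 3.42 to 236 CPM in CBM and 35.6 to 166 CPM in EBM, led by S100a9, S100a8 and Ngp, and were highest in CBM replicate 2 and EBM replicate 2. Those were also the highest libraries for Fcer1g, a gene that neutrophils and other myeloid cells use, and the part of such cells in its counts was not tested.

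Of the 8 eosinophil markers, Siglecf was at 134 CPM on average, Prg2 and Epx had 233 and 66 counts in CBM replicate 2 and at most 19 and 5 elsewhere, and the list summed to 139.9 to 175 CPM in CBM and 92.6 to 149 CPM in EBM. Sums over the 10 macrophage markers were 18.0 to 25.7 CPM in CBM and 14.5 to 35.9 CPM in EBM, and over the 7 megakaryocyte markers 23.8 to 48.9 and 14.5 to 37.9 CPM. T cell markers summed to 1.45 CPM at most and the 11 osteoblast, stromal and endothelial markers to 4.32 CPM at most, with Sp7 and Alpl at 0. B cell markers summed to 14.5 CPM at most, nearly all of it Cd79b, with Ms4a1 at 0.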

How the data were processed

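The authors extracted total RNA from AE9a leukemia cells of 2 marrow regions, removed rRNA and sequenced directional libraries with paired ends. The submitters' processing notes name HISAT2 2.0.5 and mm10, while the counting tool and its strand setting are not given in the sources used here. They deposited raw counts per gene without normalization, with a gene length for each gene. Of 54409 identifiers shared with GENCODE M21, 98.3% had the same coordinates there, so positions are on GRCm38. None of the 10 genes overlapped an annotated gene on the other strand, while on the same strand Cpa3 overlapped Mir7007 (73 counts over all libraries) and Mcpt8 overlapped Mir6949 (0 counts).

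From the deposited counts, low genes were removed with filterByExpr (edgeR 4.0.16), and the rest were normalized by TMM and tested by the quasi-likelihood F-test of EBM against CBM with no block, since the study's methods name unpaired tests for 2 groups. The standard error is the log2 fold change divided by the square root of F. Log2 CPM took a prior count of 2. TPM was computed from counts and the deposited lengths. Between libraries of 1 region the chi-square statistic per degree of freedom never fell under 11.9, so none was a duplicate. Alternatives were DESeq2 1.42.0, limma-voom (limma 3.58.1), other scaling, no filter, a replicate block and left-out libraries. The fit was tested on simulated data. All 10 genes were to be named, then in each list the 3 with the smallest p (for other cell types, the 3 most abundant), and the 5 genes most like Cpa3 and the mean of the group. Any other gene was named with its values already in view. The members and lists were chosen with earlier results of these data known. Promoters are from RefSeq (GRCm38.p6), which matched all 10 genes. Some genes of the marker lists are not reported here.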

Additional observations from a re-analysis of the deposited data

How the results depend on the processing

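None of the 10 genes passed an adjusted p of 0.05 under any alternative run that tested it. Over all genes the count of 0 became 175 with DESeq2, 40 without the filter on low counts and 13 without CBM replicate 2 and EBM replicate 3 together, a fit chosen after seeing the data, and was 0 under the other alternatives. Leaving out each library in turn, it stayed at 0, and the log2 fold change ranged from -0.025 to 2.45 for Cpa3, from -0.085 to 2.44 for Fcer1a, from -0.20 to 0.11 for Ms4a2, from -0.69 to 0.25 for Prss34 and from -0.28 to 0.029 for Il1rl1. These 5 changed sign, Cpa3 and Fcer1a without CBM replicate 2 and Fcer1a also without EBM replicate 1, and the cause was not tested. Without CBM replicate 2 and EBM replicate 3 together Prss34 was at 0.59. Ms4a2 was at 0.018 with limma-voom. Hdc, Ms4a3 and Srgn stayed above 0 under every alternative run, ranging from 0.65 to 1.24, from 0.43 to 1.10 and from 0.21 to 0.56 as single libraries were left out.

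Libraries of 1 number correlated at 0.676, -0.204 and 0.203 in their deviations from the region means, so the numbers were not taken to pair them. With the replicate block Ms4a2 was at 0.0155, no gene passed, and 1203 genes had an unadjusted p under 0.05, against 1056 without it. Of the 8 genes, Ms4a3 alone was among these. Fcer1g and Mcpt8 had 31 counts at most in a library and did not enter the main test with the filter. Fcer1g passed the filter when CBM replicate 1, CBM replicate 3, EBM replicate 1 or EBM replicate 3 was left out. Its log2 fold changes were then -0.40, -0.51, 0.39 and 0.22, so its sign changed too.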
